A study of Danio rerio with 10 samples.

Results

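Zebrafish miR-143, miR-145 and miR-199 were followed through 5 small RNA libraries, and the miR-199 hairpin gene mir199-2a was followed through 5 neutrophil mRNA libraries. The small RNA members were the entries named dre-mir-143, dre-mir-145 or dre-mir-214, or starting with dre-mir-199. By these names 4 of the 431 small RNA entries were members, namely dre-mir-143, dre-mir-145, dre-mir-199-2 and dre-mir-199-3. The gene mir199-2a, 1 of the 15335 genes of the mRNA tables, made the total 5. The hairpins dre-mir-214 and dre-mir-199-1 are not analysed here at the small RNA level.

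The small RNA libraries came from 3-day-old AB embryos without a miR-199 transgene: 3 whole-embryo libraries, 1 library of GFP-positive cells sorted by the lyzC reporter (neutrophils) and 1 of Krt4-positive cells (apical keratinocytes, the outer skin layer). The mRNA libraries came from neutrophils sorted at the same age from transgenic lines carrying GFP with either miR-199 (3 libraries) or the empty vector (2 libraries). The labels name neither the hairpin nor the promoter of the miR-199 transgene. Of the whole-embryo columns, 1 carried replicate number 1, and the other two, unnumbered, are called a and b here. The neutrophil and keratinocyte levels each rest on 1 library, so no test of a cell type was possible.

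MicroRNAs are cut from hairpin transcripts by Drosha with its partner Dgcr8 and then by Dicer, and they guide Argonaute proteins to partly matching sites in mRNA 3′ ends, which lowers translation and mRNA stability. In vertebrates miR-143 and miR-145 are made from neighbouring hairpins and are best known from smooth muscle, where they support the contractile state, and in zebrafish from gut smooth muscle. In mammals miR-199 and miR-214 come from a transcript antisense to a dynamin gene and are known from skeletal and other mesenchyme.

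The annotated positions followed these family arrangements (GRCz11 build). On the plus strand of chromosome 14, dre-mir-143 lay at chr14:38742313-38742411 and dre-mir-145 at chr14:38743941-38744053, with 1529 bases between them. Neither lay inside another listed gene, and the nearest were rnasel3 below and csnk1a1, a casein kinase gene, above. The entry dre-mir-199-3 had the same span as mir199-2a, chr3:47195137-47195234 on the minus strand, within intron 14 of the plus-strand gene dnm2a. The entry dre-mir-199-2 matched mir199-1a at chr5:1376773-1376868 on the minus strand, within intron 15 of the plus-strand dnm1a. In the mRNA tables mir199-3a and mir214a lay 2092 bases apart on the plus strand of chromosome 20, both within intron 14 of the minus-strand dnm3a. All 3 miR-199 genes thus lay antisense to an intron of a dynamin gene, which encode GTPases that pinch off membrane vesicles.

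The small RNA libraries held 1170260, 1163747 and 867672 counts in whole embryos (1, a and b), 86279 in keratinocytes and 20864 in neutrophils. Levels are given as CPM, each count scaled to a library total of 1000000. A single count was worth 47.9 CPM in neutrophils and 11.6 CPM in keratinocytes. Against the whole-embryo mean, the summed level of the blood miRNAs miR-223 and miR-142 was 548-fold higher in the neutrophil library and 3.82-fold higher in the keratinocyte library. The sum of 9 epithelial miRNA entries was 1.28-fold higher in the keratinocyte library. All 9 were detected there, and 3 lay below all whole-embryo libraries. The sum was 2.00-fold higher in the neutrophil library, where 8 of the 9 lay below all whole-embryo libraries. The entry dre-mir-205 gave 3817 of the 5436 epithelial counts in keratinocytes and 1950 of the 2061 in neutrophils. The 17 neural entries summed to 6.78-fold less in neutrophils and 18.0-fold less in keratinocytes. Striated muscle entries summed to 2.59-fold and 17.1-fold less, and erythroid entries to 15.9-fold and 21.9-fold less, from 9 or fewer counts in each sorted library. The 2 endothelial entries stood at 1.04-fold of the whole-embryo mean in neutrophils (28 counts) and 5.58-fold less in keratinocytes (20 counts). Of 213 entries whose mean reached 10 CPM in any group, 93.0% in neutrophils and 88.7% in keratinocytes lay outside the whole-embryo range. A single shallow library falls outside the range of 3 deep ones by counting noise too, and 112 of these entries had at most 3 neutrophil counts.

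dre-mir-143 was by far the most abundant of the family members. Its level was 31829, 36430 and 29520 CPM in whole embryos 1, a and b, 43568 CPM in keratinocytes and 14858 CPM in neutrophils, from 37248, 42395, 25614, 3759 and 310 counts. It was the ninth, sixth and eighth most abundant entry of the whole-embryo libraries, the fifth of the keratinocyte library and the fifteenth of the neutrophil library. The neutrophil library lay below all 3 whole-embryo libraries and the keratinocyte library above all 3. Relative to the whole-embryo mean of 32593 ± 3518 CPM (SD, n = 3), the neutrophil level was 0.456-fold (95% Poisson counting interval 0.407 to 0.510) and the keratinocyte level 1.34-fold (1.29 to 1.38). These intervals cover counting error of the sorted library only, since reads without molecular identifiers are not independent molecules. Keratinocytes lay above and neutrophils below all whole-embryo libraries under each of the 7 alternative scalings, pseudocounts and left-out libraries tried, but the size depended on scaling. The keratinocyte log2 difference, 0.42 with library totals, became 1.24 under TMM, 1.21 without the 5 most abundant entries and 1.53 under the median of ratios. In a pool of cells, fewer cells carrying a miRNA and less of it per cell cannot be told apart.

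The second in order was dre-mir-199-3. It gave 1223, 1107 and 694 counts in whole embryos 1, a and b, 49 in keratinocytes and 5 in neutrophils, which is 1045, 951, 800, 568 and 240 CPM. Both sorted libraries lay below all 3 whole-embryo libraries, whose mean was 932 ± 123.7 CPM (SD, n = 3). The keratinocyte level was 0.609-fold of that mean (counting interval 0.451 to 0.806) and the neutrophil level 0.257-fold (0.0835 to 0.600). The neutrophil interval is wide because it rests on 5 counts. The keratinocyte direction depended on scaling. Its log2 difference, −0.71 with library totals, became 0.11 under TMM, 0.076 without the 5 most abundant entries and 0.40 under the median of ratios. Those scalings moved the median of all detected entries in keratinocytes by 0.81, 0.78 and 1.0995.

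dre-mir-145 was far scarcer than its genomic neighbour. Its level was 189, 229 and 153 CPM in whole embryos 1, a and b, 104 CPM in keratinocytes and 192 CPM in neutrophils, the sorted libraries with 9 and 4 counts. The neutrophil library lay inside the whole-embryo range and the keratinocyte library below it. Against the whole-embryo mean of 191 ± 38.1 CPM (SD, n = 3), the fold was 1.01 in neutrophils (counting interval 0.274 to 2.58) and 0.548 in keratinocytes (0.250 to 1.04). Both intervals include 1, so no difference was detectable at this depth. Under the median of ratios the keratinocyte log2 difference of −0.84 became 0.25.

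The fourth entry, dre-mir-199-2, had 3 counts in whole embryo 1, 3 in whole embryo a and 0 in whole embryo b, keratinocytes and neutrophils. The limit of 3 counts set for a count of 0 is 34.8 CPM in the keratinocyte library and 143.8 CPM in the neutrophil library, and the upper ends of the exact 95% Poisson intervals are 42.8 and 176.8 CPM. Its level in sorted cells could not be set against the whole embryo at this depth. Of the counts of these 2 miR-199 hairpins, without dre-mir-199-1, dre-mir-199-3 took 99.8% in whole embryo 1 (95% Wilson interval 99.3 to 99.9) and 99.7% in whole embryo a. It took all of them in the other 3 libraries. Hairpins that share a mature sequence share reads, and the rule by which the authors placed such reads is not given in the sources used here, so this split between copies is uncertain.

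**Figure D1:**
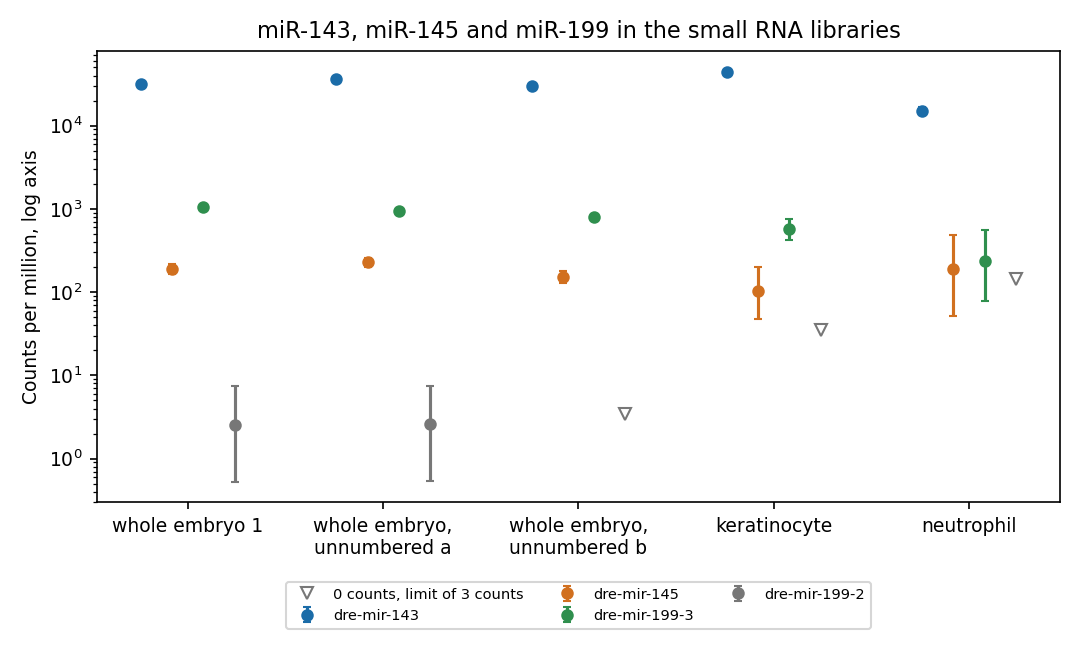
Level of each hairpin (CPM, log axis) in the 5 small RNA libraries, with exact 95% Poisson counting intervals. Open triangles mark 0 counts, drawn at the limit of 3 counts. dre-mir-143 lies far above the others in every library, and dre-mir-145 and dre-mir-199-3 overlap only in neutrophils.

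The order dre-mir-143, dre-mir-199-3, dre-mir-145 held in all 5 libraries. In neutrophils the counting intervals of dre-mir-199-3 (77.8 to 559 CPM) and dre-mir-145 (52.2 to 491 CPM) overlapped, so these neighbours in the order did not differ beyond counting error there. In the other 4 libraries their intervals did not overlap.

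Ratios between hairpins within a library need no scaling. The counts of dre-mir-143 for each count of dre-mir-145 were 169, 159 and 193 in whole embryos 1, a and b, 418 in keratinocytes (95% exact Clopper-Pearson interval 220 to 914) and 77.5 in neutrophils (30.0 to 286). The keratinocyte ratio lay above all 3 whole-embryo values, whose mean was 173 ± 17.4 (SD, n = 3), and the neutrophil interval included them. The ratio of dre-mir-143 to dre-mir-199-3 was 30.5, 38.3 and 36.9 in whole embryos, 76.7 in keratinocytes (57.9 to 104) and 62.0 in neutrophils (26.3 to 192). The keratinocyte interval again lay above all 3 whole-embryo values, and the neutrophil interval did not. Against dre-mir-145, dre-mir-199-3 had a like ratio in whole embryos (5.53, 4.15 and 5.22) and keratinocytes (5.44, interval 2.65 to 12.6). The neutrophil ratio was 1.25 from 5 and 4 counts, and its interval (0.269 to 6.30) included all of these values.

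**Figure D2:**
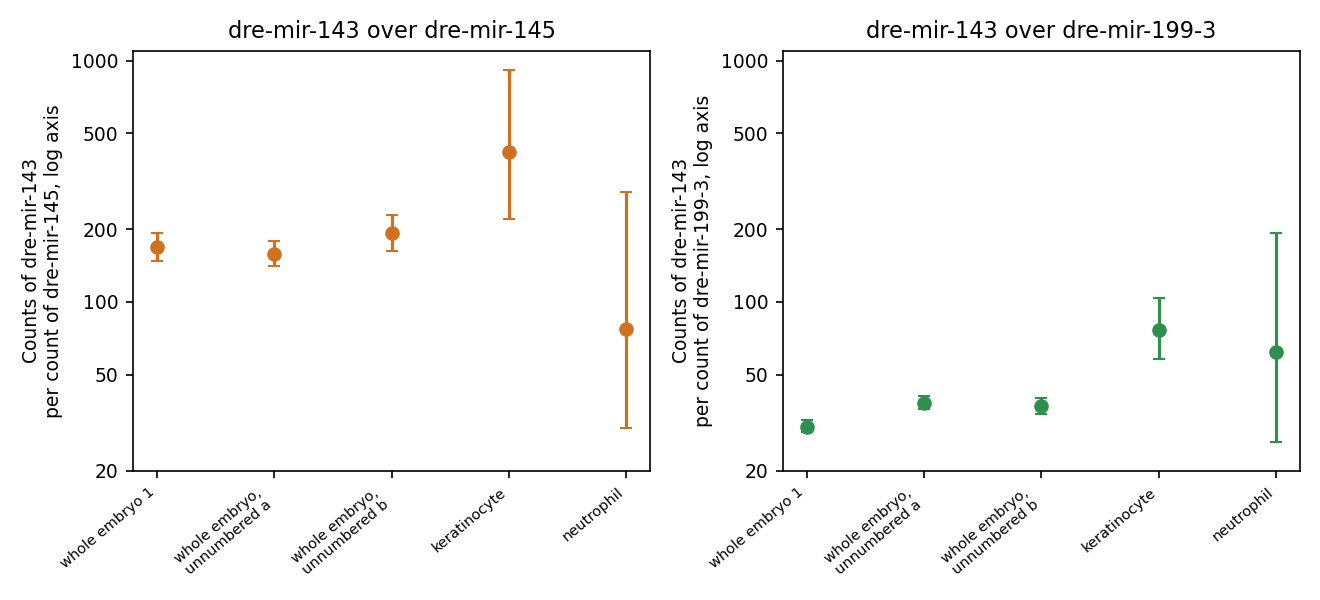
Counts of dre-mir-143 for each count of dre-mir-145 (left) and of dre-mir-199-3 (right) in each small RNA library, on log axes, with exact 95% binomial intervals. The keratinocyte library is highest in both panels, at 418 and 76.7.

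None of the 3 members that could be compared (dre-mir-143, dre-mir-145 and dre-mir-199-3) differed by 4-fold from whole embryos in either sorted library, with 4-fold meaning a log2(CPM + 1) difference of at least 2 together with a level outside the whole-embryo range. Among the 213 compared entries, 17.4% passed that rule as higher and 38.0% as lower in neutrophils, and 5.63% as higher and 39.0% as lower in keratinocytes. The log2 differences in neutrophils were −1.13 for dre-mir-143, 0.03 for dre-mir-145 and −1.95 for dre-mir-199-3, beside a median of −0.85 over all compared entries. In keratinocytes they were 0.42, −0.84 and −0.71, beside a median of −1.34. dre-mir-199-3 in neutrophils sat just inside the threshold, and passed it under TMM (−2.33), without the 5 most abundant entries (−2.25) and without whole embryo b (−2.05).

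dre-mir-143 was lower than every whole-embryo library in neutrophils and higher than every such library in keratinocytes, as were 22 of the 213 entries (10.3%). Of those, dre-mir-143, dre-mir-152, dre-mir-182, dre-mir-200a and dre-mir-429a had at least 10 neutrophil counts, a group chosen after the values were seen. dre-mir-199-3 was below the whole embryos in both sorted libraries, as were 94 entries (44.1%).

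**Figure D3:**
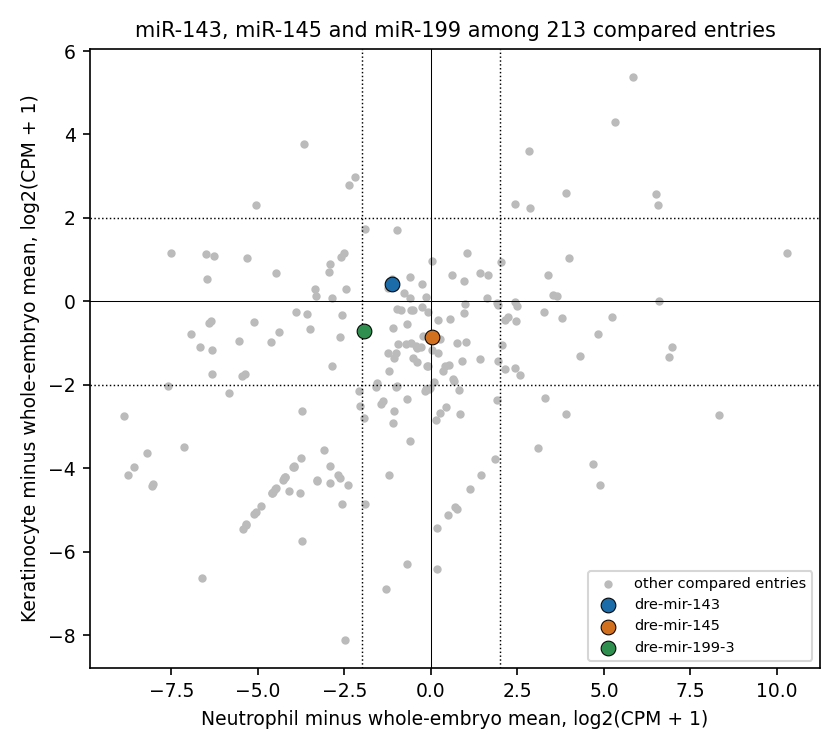
Difference from the whole-embryo mean in neutrophils (x axis) and keratinocytes (y axis), in log2(CPM + 1), for 213 compared small RNA entries. Dotted lines mark 4-fold. dre-mir-143 sits left of 0 and above 0, dre-mir-145 and dre-mir-199-3 below 0 on the y axis, and all 3 inside the dotted square.

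Profiles over the 5 small RNA libraries were compared by the Euclidean distance between centred log2(CPM + 1) values. The nearest to dre-mir-143 were dre-mir-200a (0.161), dre-mir-429a (0.339) and dre-mir-10b-2 (0.532). The miR-200 family, to which the first pair belongs, is known from epithelia. dre-mir-200a was at 767 CPM in neutrophils, 2272 CPM in keratinocytes and 1828 ± 251 CPM (SD, n = 3) in whole embryos. The nearest to dre-mir-145 were dre-mir-16b (0.312), dre-mir-301a (0.439) and dre-mir-734 (0.476). The nearest to dre-mir-199-3 were dre-mir-203b (0.662), dre-mir-141 (0.776) and dre-mir-27a (0.816), of which miR-203 is known from skin and miR-141 from epithelia. Such distances describe the same 5 libraries, with their depth and sorting, for every entry. The entries dre-mir-199-3, dre-mir-145, dre-mir-10b-2, dre-mir-734, dre-mir-141 and dre-mir-27a each had 5 or fewer neutrophil counts.

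The mRNA comparison asked which neutrophil transcripts differ in fish made to express miR-199. Totals ran from 12339928 to 17024134 counts, and edgeR's quasi-likelihood test with Benjamini-Hochberg adjustment over 8897 genes called 19.9% of them at an adjusted p under 0.05, 9.49% higher and 10.4% lower in miR-199 neutrophils. With library totals alone, 62.8% of the calls were higher, against 47.6% in the TMM-scaled fit. DESeq2 called 2618 genes, 1357 higher and 1261 lower, while 5628 of the 15335 genes got no adjusted p from it. Counts at an unadjusted p under 0.05 are given below without their share over all tested genes, which was not counted. That share cannot be under the 19.9% called after adjustment and may be well above it. Those counts therefore do not show that a list changed more than all tested genes. Nothing in the labels says that the libraries of a group came from separate clutches, so these p-values measure the spread between these libraries. The fit leans on both vector libraries: without vector replicate 1 it called 2 genes and without vector replicate 3 it called 0, where the remaining vector library is assumed to vary like the other group.

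The hairpin gene mir199-2a was detected in every mRNA library, from 26 and 15 reads in vector neutrophils. Its TMM-scaled level was 1.58 and 1.097 CPM in vector replicates 1 and 3, and 9.02, 3.45 and 3.91 CPM in miR-199 replicates 1, 2 and 3, with means of 1.34 ± 0.338 (SD, n = 2) and 5.46 ± 3.09 (SD, n = 3). Every miR-199 library lay above both vector libraries, and miR-199 replicate 1 was the highest by a wide margin. Groups that do not overlap were found for 57.3% of the tested genes. The log2 fold change was 2.02 (SE 0.58) with an adjusted p of 0.0562 by edgeR, which missed the threshold. Over 11 alternatives the log2 fold change ran from 1.46 to 2.30 and the adjusted p from 0.00815 to 0.337, under 0.05 in 5 of them. Without miR-199 replicate 1 it was 1.46, with an adjusted p of 0.0494. A larger fitted rise was found for 317 of the 8897 genes.

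Whether these reads come from the chromosomal gene, from the transgene or from intron reads of dnm2a was not tested, and whether the counting used strand is not given in the sources used here. The other hairpin genes of these families, mir143-1, mir143-2, mir145, mir199-1a, mir199-3a and mir214a, had 0 counts in all 5 mRNA libraries. However, mir143-1 and mir143-2 are listed at the same span on chromosome 14. Each has a listed length of 198 bases against a hairpin of 99 bases, and mir145 has 226 against 113. How reads on shared or repeated spans were counted was not tested, so the 0 counts of these genes do not show absence.

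Per kilobase of listed length, mir199-2a stood at 16.1 and 11.2 CPM in vector neutrophils and at 92.0, 35.2 and 39.9 CPM in miR-199 neutrophils. The exons of its host gene dnm2a stood at 37.9 and 32.8 CPM per kilobase against 36.7, 36.6 and 34.7. On this scale the hairpin lay under its host's exon level in both vector libraries. In the miR-199 libraries it lay far above it in replicate 1 and close to it in replicates 2 and 3. The listed lengths are 98 and 2573 bases, with no correction for reads that only partly overlap a short feature. The level of hairpin against host depends on that choice. The ratio of hairpin to host was 0.424 and 0.342 in vector and 2.51, 0.963 and 1.15 in miR-199 neutrophils. The host gene itself had a log2 fold change of 0.03 (SE 0.13, edgeR adjusted p 0.904).

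**Figure D4:**
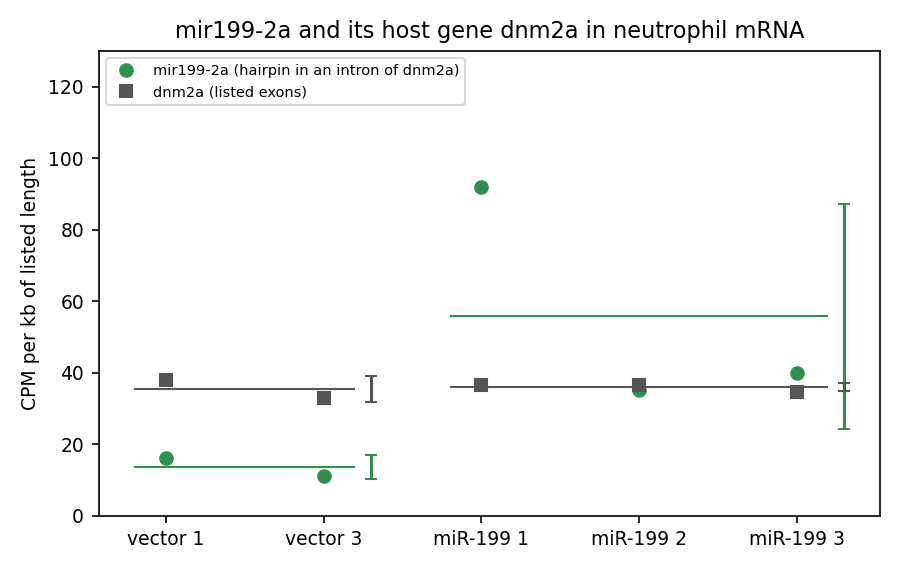
CPM per kilobase of listed length for mir199-2a (circles) and the exons of its host gene dnm2a (squares) in each mRNA library. Horizontal lines are group means and vertical bars the SD (n = 2 vector, n = 3 miR-199). The hairpin lies between 11.2 and 16.1 in vector and between 35.2 and 92.0 in miR-199 libraries, and dnm2a lies between 32.8 and 37.9 in all 5.

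The genes around the hairpins gave no value past the threshold by edgeR. Beside mir199-2a, qtrt1, which encodes the catalytic subunit of a tRNA-modifying enzyme, had a log2 fold change of −0.66 (SE 0.27, adjusted p 0.135) and tmed1a of −0.45 (SE 1.21, adjusted p 0.817). Beside the miR-143 and miR-145 hairpins, rnasel3 had −1.91 (SE 0.79, adjusted p 0.138) from 14 and 11 against 5, 1 and 3 counts, and csnk1a1 had too few counts to test. Around mir199-1a, golga2, a Golgi matrix gene, had 0.45 (adjusted p 0.178) and ciz1a −0.45 (adjusted p 0.481). Around mir199-3a and mir214a, mettl13 had 0.51 (adjusted p 0.238) and pigc −0.37 (adjusted p 0.266). The hosts dnm1a, at 0 counts in every library, and dnm3a, at 1 and 2 counts in vector and 17, 8 and 0 in miR-199 libraries, were not tested.

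Few hairpin genes were seen in the mRNA libraries. Of 340 listed, 275 had 0 counts in all 5 libraries and 10 could be tested. None of the 10 was called by edgeR, 5 had an unadjusted p under 0.05, and DESeq2 called 2. Over all genes edgeR called 19.9% of those tested after adjustment. DESeq2 called 2618 of 15335 genes, and 5628 genes got no adjusted p from it. The share of all tested genes at an unadjusted p under 0.05 was not counted. The 5 of 10 therefore cannot be read against the 19.9%. Of the 10, 8 had a fold change above 0, with a median log2 of 0.69 against 0.02 over all tested genes. mir29b-1 rose more than mir199-2a (log2 3.40, edgeR adjusted p 0.0510), from 1 and 1 counts in vector libraries. mir1306 fell (log2 −3.87, edgeR adjusted p 0.0687). The member mir199-2a was the fifth of the listed hairpin genes by mean CPM. The genes nearest in profile to mir199-2a over the 5 mRNA libraries were si:dkey-261j4.4 (distance 0.204), rasgrp3 (0.205), an exchange factor gene for Ras, and zgc:174224 (0.210). These genes were chosen by likeness over the same 5 libraries, so a similar rise was built into the choice. Their log2 fold changes were 2.02, 2.23 and 1.54, with edgeR adjusted p of 0.0529, 0.0486 and 0.0684 in that order.

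Some marker genes of neutrophils and of other cell types differed between the groups. The summed level of 9 neutrophil marker genes ran from 79920 to 86318 CPM in vector and from 52787 to 60094 CPM in miR-199 libraries, with 4 of the 9 called lower by edgeR (lyz, mmp9, lect2l and cebp1) and none higher, beside 10.4% called lower and 9.49% higher over all tested genes. None of these 4 passed without miR-199 replicate 2, with edgeR adjusted p of 0.0931 (lyz), 0.110 (mmp9), 0.105 (lect2l) and 0.0803 (cebp1). That fit called 926 genes, against 1772 with all libraries. All 4 passed without miR-199 replicate 1, and all but lect2l without miR-199 replicate 3. With either vector library left out, which leaves 1 vector library, the log2 fold changes of all 4 stayed negative. An unadjusted p under 0.05 was found for 8 of the 9 neutrophil marker genes, and DESeq2 called 2 higher and 6 lower. Over all 15335 genes DESeq2 called 1357 higher and 1261 lower, and 5628 got no adjusted p from it. The share of all tested genes at an unadjusted p under 0.05 was not counted. Of the 13 listed mesenchyme markers 3 could be tested and none was called (edgeR, none at an unadjusted p under 0.05, none by DESeq2). Their sum was 7.11 to 10.8 CPM in the 5 libraries, with col1a1a and pdgfra at 0. Smooth muscle markers summed to 524 to 581 CPM, nearly all from myh11a, which had 541 ± 34.5 CPM (SD, n = 2) in vector and 536 ± 27.8 CPM (SD, n = 3) in miR-199 neutrophils. Of the 4 tested, none was called (edgeR, none at an unadjusted p under 0.05, none by DESeq2). Of the 3 tested endothelial markers, tie1 was higher (log2 3.92, edgeR adjusted p 0.00678), while tek (log2 −0.50) and fli1a (0.05) were not called. Of the 3 tested keratinocyte markers, krt91 was lower (log2 −2.77, edgeR adjusted p 0.0121), while krt4 (−0.23) and cdh1 (−0.46) were not called. These calls stand beside the 19.9% of all tested genes called in either direction. Neither tie1 nor krt91 passed without vector replicate 1 or 3. Of the 4 tested macrophage markers none was called by edgeR, 2 had an unadjusted p under 0.05 and DESeq2 called 1, and mpeg1.1 was at 0. The only erythroid marker tested was not called by edgeR, had an unadjusted p under 0.05 and was called by DESeq2. The part of these markers in the gene values below was not tested.

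Of 11 listed genes for miRNA processing and Argonaute proteins, 9 could be tested. None was called by edgeR, with 3 at an unadjusted p under 0.05 and 1 called higher by DESeq2. Over all genes edgeR called 19.9% of those tested. DESeq2 called 1357 of 15335 genes higher, and 5628 genes got no adjusted p from it. The share of all tested genes at an unadjusted p under 0.05 was not counted. The 9 processing and Argonaute genes had a median log2 fold change of −0.08, against 0.02 over all tested genes. The 4 with the highest mean level were ago4 (an Argonaute), dgcr8, tarbp2 (a Dicer partner) and dicer1. dgcr8 stood at 55.8 ± 0.509 CPM in vector (SD, n = 2) and 73.7 ± 3.19 CPM in miR-199 neutrophils (SD, n = 3), a log2 fold change of 0.40 with an edgeR adjusted p of 0.0717. tarbp2 had −0.43 (adjusted p 0.0812), ago4 −0.08 (adjusted p 0.770) and dicer1 0.29 (adjusted p 0.609). ago3b, at −1.60 (adjusted p 0.145), passed without miR-199 replicate 3 (adjusted p 0.0183). That fit called 2195 genes, against 1772 with all libraries.

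Of the 5 listed dynamin genes 2 could be tested, and dnm2b, the paralogue of the mir199-2a host, was called higher, beside 9.49% of all tested genes. dnm2b gave 53 and 42 counts in vector and 367, 168 and 191 counts in miR-199 libraries, again with miR-199 replicate 1 the highest. Its groups did not overlap, as in 57.3% of all tested genes. Its log2 fold change was 2.45 (SE 0.36, edgeR adjusted p 0.0122). Without vector replicate 1 or 3 its adjusted p was 0.137 or 0.157.

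Genes published as miR-199 targets, mostly from mammalian work, moved in both directions. The list was chosen with earlier results of these data known, so a call of a member, cdk2 included, is no independent support. Of 19 listed, 13 could be tested, 2 were higher and 1 lower, with a median log2 fold change of 0.05 against 0.02 over all tested genes. The share called is near the background of 19.9%. The lower gene was cdk2, the cyclin-dependent kinase of the G1 to S transition, with 1097 and 940 counts in vector and 410, 562 and 348 in miR-199 libraries (log2 −1.07, SE 0.26, edgeR adjusted p 0.0380). The groups did not overlap, as in 57.3% of all tested genes, and the edgeR adjusted p was 0.0641 without miR-199 replicate 3. Without vector replicate 1 or 3, which leaves 1 vector library, the log2 fold change of cdk2 was −1.10 or −1.04. cdk2 passed in neither of these fits. Higher were jag1b, a Notch ligand, with 595 and 383 counts in vector and 1492, 1777 and 1609 in miR-199 libraries (log2 1.89, SE 0.21, edgeR adjusted p 0.00704), and smarca2, an ATPase of SWI/SNF chromatin remodelling complexes (log2 0.95, SE 0.14, adjusted p 0.0125). Without vector replicate 1 or 3 neither passed, at 0.0989 and 0.131 for jag1b and 0.139 and 0.176 for smarca2. hif1ab, the most abundant of the list with a log2 fold change of −0.25, had an adjusted p of 0.242. Of the 13 tested genes, 5 had an unadjusted p under 0.05 by edgeR, and DESeq2 called 3 higher and 1 lower. Over all 15335 genes DESeq2 called 1357 higher and 1261 lower, and 5628 got no adjusted p from it. The share of all tested genes at an unadjusted p under 0.05 was not counted.

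Genes published as targets of the other family members are read beside the 9.49% of all tested genes called higher. For miR-214, 9 of 12 listed genes could be tested and 1 was higher, sufu, an inhibitor of Hedgehog signalling (log2 0.77, SE 0.16, edgeR adjusted p 0.0263, and 0.0649 without miR-199 replicate 2). For miR-143 and miR-145, 7 of 13 listed genes could be tested and 1 was higher, smad3a, a transducer of TGF-beta signals. It gave 509 and 479 counts in vector and 964, 1017 and 1117 counts in miR-199 libraries (log2 1.19, SE 0.18, edgeR adjusted p 0.0121). Without vector replicate 1 or 3 neither gene passed, at 0.203 and 0.242 for sufu and 0.146 and 0.148 for smad3a. An unadjusted p under 0.05 was found for 4 miR-214 and 3 miR-143 and miR-145 targets. The share of all tested genes at that level was not counted. DESeq2 called 2 of the miR-214 targets, both higher, and 3 of the miR-143 and miR-145 targets, 2 higher and 1 lower. Over all 15335 genes DESeq2 called 2618, 1357 of them higher, and 5628 got no adjusted p from it. No share was computed for DESeq2, so its counts do not show that a list changed more than all genes. The medians of the lists were 0.33 and 0.05.

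**Figure D5:**
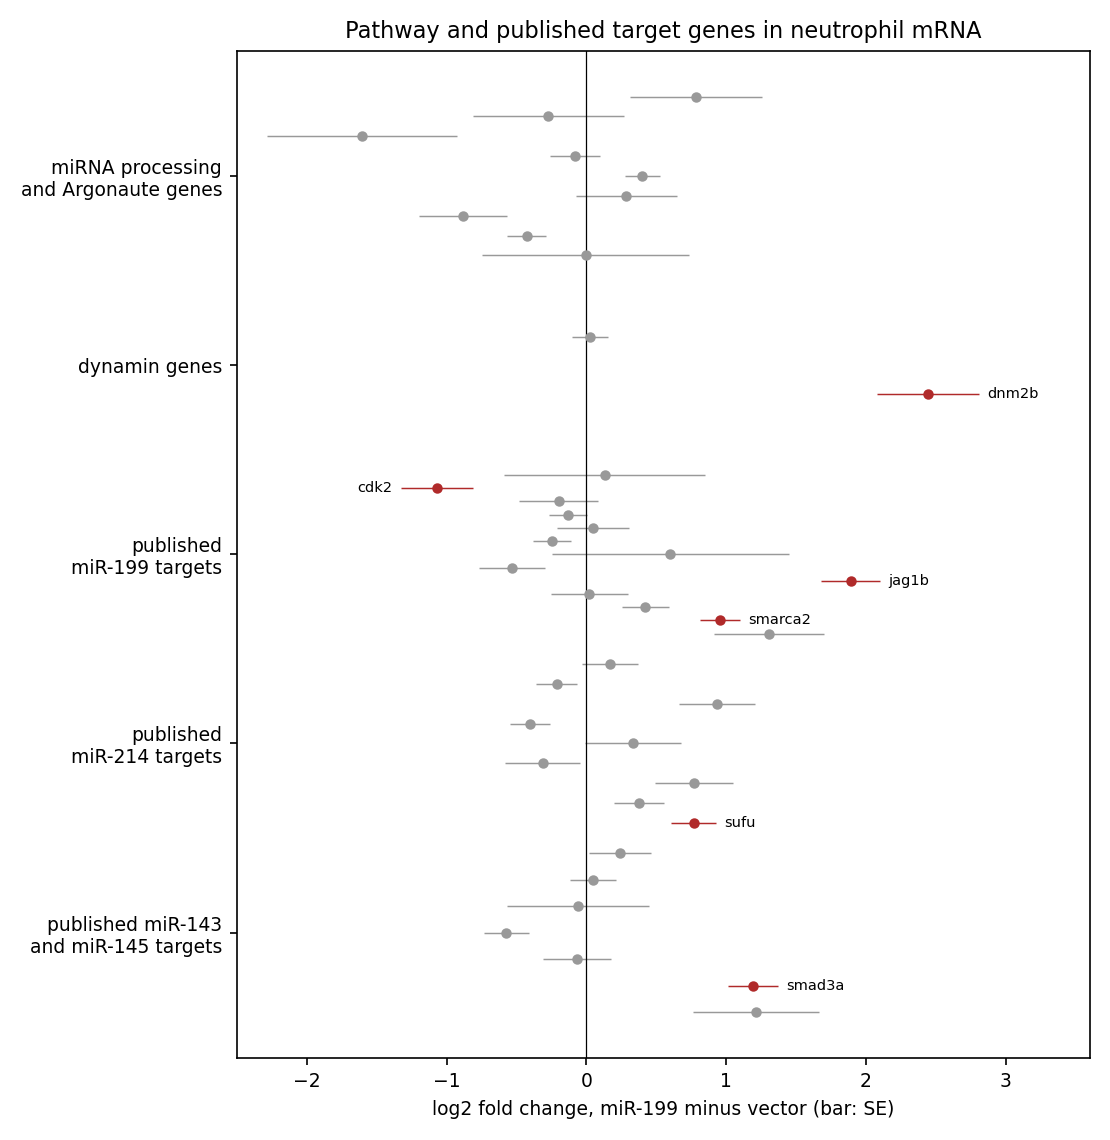
log2 fold change (miR-199 minus vector, bars are SE) for the tested genes of 5 lists. Red points had an edgeR adjusted p under 0.05 and are named: dnm2b, jag1b, smarca2, sufu and smad3a lie right of 0 and cdk2 left of it.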

How the data were processed

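Per the submitters' processing notes, reads were handled with bcl2fastq, STAR 2.5, featureCounts (Subread 1.5.1) and edgeR 3.20.8 on GRCz11. Per the labels' protocols, small RNA libraries were made from gel-selected TruSeq products and mRNA libraries with SMART-Seq v4. The deposited values are raw counts per gene or hairpin. From these, CPM were computed on library totals for small RNA, with exact Poisson and exact Clopper-Pearson 95% intervals (Wilson for the shares of the 2 miR-199 hairpins). Differences are in log2(CPM + 1). The mRNA counts were tested with edgeR 4.0.16 (TMM, filterByExpr, quasi-likelihood, two-sided, Benjamini-Hochberg over 8897 genes), with DESeq2 1.42.0 as an alternative. The fit was tested on simulated data. The members, lists and targets were chosen with earlier results of these data known. Named were all members, hairpin genes of the same families, their host and neighbouring genes, the called genes of the processing, dynamin and miR-199 target lists (or the 4 most abundant where fewer were called) and the 3 nearest profiles; the called members of the other lists, ago3b and the remaining genes were named after their values were seen. Whole-embryo libraries and replicate mRNA libraries differed by more than sampling noise (chi-square per degree of freedom 11.9 or more), so all were kept. Alternatives changed the scaling, filter, pseudocount, test, replicate block and left-out library.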

Additional observations from a re-analysis of the deposited data

Results flagged for a closer look

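dre-mir-143 lay above all 3 whole-embryo libraries in the keratinocyte library and below all 3 in the neutrophil library. The keratinocyte level exceeded the neutrophil level by 1.55 on the log2(CPM + 1) scale. Each cell type has 1 library, and the difference was not tested. The blood miRNA sum was 144795 CPM in the neutrophil library, against 1008 CPM in the keratinocyte library. In whole embryos it was 264 ± 21.2 CPM (SD, n = 3). The entry dre-mir-182 alone gave 37789 of the 86279 keratinocyte counts and 1393 of the 20864 neutrophil counts. The part of these differences in library make-up in the dre-mir-143 value was not tested.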

How the results depend on the processing

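For mir199-2a the edgeR adjusted p was under 0.05 with library totals only (0.0495), no filter (0.0441) and at least 10 counts in every library (0.0402). The DESeq2 adjusted p was 0.00815. The log2 fold changes were 2.15, 2.02, 2.02 and 2.02 in that order, and ran from 1.46 to 2.30 with a library left out. Leaving out a library moved the number of genes called from 1772 to between 0 and 2195 (0 to 1083 higher, 0 to 1112 lower), and DESeq2 called 1357 higher. A replicate block on libraries numbered 1 and 3 called 98 genes (31 higher, 67 lower) from 4 libraries, with mir199-2a at 2.18 (edgeR adjusted p 0.0942). The labels do not pair these numbers, and same-numbered libraries deviated with correlations of −0.24 and −0.18 across genes. With 2 vector libraries, each deviates from their mean as the mirror image of the other. The correlations are therefore not independent and do not decide whether the numbers pair libraries. With a library left out, members called ran from 0 to 1 (processing, dynamins), 0 to 4 (miR-199 targets), 0 to 3 (miR-214 targets) and 0 to 2 (miR-143 and miR-145 targets), and the dynamin median from 1.08 to 2.42, where dnm3a enters the test without a vector library. For dre-mir-143 the log2 difference under TMM, median of ratios and totals without the 5 most abundant entries was −1.52, −0.87 and −1.43 in neutrophils and 1.24, 1.53 and 1.21 in keratinocytes, there 0.36 to 0.51 with a whole-embryo library left out. In keratinocytes dre-mir-199-3 was at 0.11, 0.40 and 0.076 and dre-mir-145 at 0.25 under the median of ratios. A minimum of 100 CPM, which compares fewer entries, left 42 entries lower in neutrophils and 49 in keratinocytes. With 10 CPM added, which shrinks the differences of low levels, 50 were lower in keratinocytes. The median of ratios, which moved the median of detected keratinocyte entries by 1.0995, gave 25 higher there. What else moved these numbers was not tested. Counts of 5 or fewer in neutrophils limit dre-mir-145 and both miR-199 hairpins. The comparison by seed matches in 3′ UTRs was not run.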

Other observations

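Hairpins at 10 CPM or more in whole embryos were paired with the next such hairpin on the same strand where it began within 10 kilobases, a comparison chosen after the values were seen. Pairs that skip a hairpin of a longer cluster were not compared. Of 43 pairs of neighbours, dre-mir-143 and dre-mir-145 were the fourth most unequal, 173-fold apart against a median of 6.66-fold. More unequal were dre-mir-92a-1 and dre-mir-19b, dre-mir-24-3 and dre-mir-27b, and mir96 and dre-mir-182. Differences in how well a mature sequence is captured during library making were not tested.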
